A study of Homo sapiens with 6 samples.

Results

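The genes described here handle cellular cholesterol after it has been made or taken up: the LXR receptors that sense sterol excess, the transporters and carriers that move it, and the enzyme that stores it. They were 10 named genes (NR1H3, NR1H2, ABCA1, ABCG1, APOE, MYLIP, LPCAT3, NPC1, NPC2 and SOAT1) of the 42307 genes in the deposited tables, found by exact symbol, and each symbol occurred in 1 row. RNA had been sequenced from U251, an established human glioblastoma cell line whose genotype the labels give as WT in both groups. Cells were collected 3 days after transfection with 1 ug per well of a STING overexpression plasmid (3 libraries) or of a negative control plasmid (3 libraries). STING relays the detection of cytosolic DNA to interferon and inflammatory gene programmes. Every library came from this single line. The labels leave unsaid whether replicates were separate cultures, and p-values therefore describe the scatter of these libraries, part of which could be technical.

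LXR alpha (NR1H3) and LXR beta (NR1H2) are nuclear receptors that bind oxysterols and, as partners of RXR, switch on genes that remove cholesterol from the cell. Their targets include the efflux pumps ABCA1 and ABCG1, the lipid carrier apolipoprotein E, the ubiquitin ligase MYLIP, which sends lipoprotein receptors to degradation, and LPCAT3, which remodels membrane phospholipids. NPC2 and NPC1 hand cholesterol out of the lysosome, and SOAT1 esterifies it for storage in lipid droplets. In brain, astrocytes are known to supply cholesterol on apolipoprotein E particles, and glioblastoma cells are known to depend on cholesterol uptake and on LXR signalling.

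Counts summed to between 75605739 and 76566375 in the STING plasmid libraries and to between 71498790 and 76158548 in the control plasmid libraries. Levels are given as CPM, read counts scaled to TMM-adjusted library size, and 3 counts corresponded to 0.0388 to 0.0395 CPM with the STING plasmid and 0.0397 to 0.0423 CPM with the control plasmid, a floor that covers counting error only. STING1, the gene on the plasmid, was at 56.3, 54.6 and 47.3 CPM in the STING plasmid libraries, against 36.2, 37.1 and 31.2 CPM in the control libraries (1.51-fold, adjusted p = 0.00221 in edgeR's quasi-likelihood test). Of the astrocyte and glioma markers examined, 9 of 10 were tested and 2 (GFAP and TNC) were called lower in edgeR. The summed level of this list was 4300 to 4460 CPM with the STING plasmid and 4640 to 4780 CPM with the control plasmid. Most of that sum was VIM (mean 2625 CPM with the STING plasmid and 2785 CPM with the control plasmid) and CD44. CD44 averaged 912 CPM with the STING plasmid and 942 CPM with the control plasmid, and neither gene was called. S100B averaged 0.0869 CPM with the STING plasmid and 0.250 CPM with the control plasmid. The microglia and macrophage list, of 10 genes, summed to 3.90 to 6.72 CPM with the STING plasmid and 4.98 to 11.7 CPM with the control plasmid. Most of this sum was PTPRC (mean 2.16 CPM with the STING plasmid and 4.80 CPM with the control plasmid), CSF1R (1.37 CPM with the STING plasmid and 1.40 CPM with the control plasmid) and CD14 (1.14 CPM with the STING plasmid and 1.099 CPM with the control plasmid). ITGAM averaged 0.313 CPM with the STING plasmid and 0.349 CPM with the control plasmid, and CX3CR1 0.0822 CPM with the STING plasmid and 0.318 CPM with the control plasmid. AIF1 averaged 0.0172 CPM with the STING plasmid and 0.129 CPM with the control plasmid, and TYROBP 0 CPM with the STING plasmid and 0.125 CPM with the control plasmid. C1QA and TREM2 averaged 0.0439 and 0.0348 CPM with the STING plasmid and were at 0 with the control plasmid, and C1QB was at 0 in every library. Summed hepatocyte, neuron and endothelium lists lay at 3.21 to 4.23, 87.7 to 105 and 1.42 to 2.72 CPM with the STING plasmid and at 4.34 to 6.59, 76.6 to 89.6 and 2.67 to 2.79 CPM with the control plasmid. Nearly all of the neuron sum was MAP2 (mean 90.2 CPM with the STING plasmid and 79.7 CPM with the control plasmid). SNAP25 averaged 2.73 CPM with the STING plasmid and 2.40 CPM with the control plasmid. RBFOX3, SYP and STMN2 each averaged under 1 CPM in both groups.

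With the STING plasmid 1 of the 10 genes fell, LPCAT3, and 0 rose in edgeR's quasi-likelihood test (adjusted p under 0.05 over all tested genes). In RNA from whole cultures, fewer cells expressing a gene and less RNA per cell cannot be told apart. All 10 passed the filter on low counts, and 1.49% of the 21679 tested genes were called in either direction, 0.890% lower and 0.604% higher. At an unadjusted p under 0.05 there were 5 lower genes (LPCAT3, NPC2, ABCA1, NR1H2 and ABCG1) and 1 higher (MYLIP), or 6 of 10, where 14.4% of all tested genes reached this level. The groups did not overlap for 5 of the 10 genes, 4 of them lower (LPCAT3, NPC2, ABCA1 and ABCG1) and 1 higher (MYLIP). Among all tested genes 19.9% did not overlap, 9.73% lower and 10.1% higher. The median log2 fold change of the 10 genes was −0.12, beside 0.00 over all tested genes, and 6 estimates were negative and 4 positive. The 10 genes were chosen with earlier results of these data known, so these counts and the median are a description with no test. DESeq2 gave an adjusted p for 7 of the 10 and called LPCAT3, NPC2 and ABCA1 lower and 0 higher, where it called 8.90% of the genes with an adjusted p, 5.28% lower. Limma-voom called LPCAT3 lower and 0 higher. Over all genes the split of calls depended on scaling: 131 genes were higher and 193 lower with TMM, and 253 were higher and 142 lower with total counts alone.

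**Figure D1:**
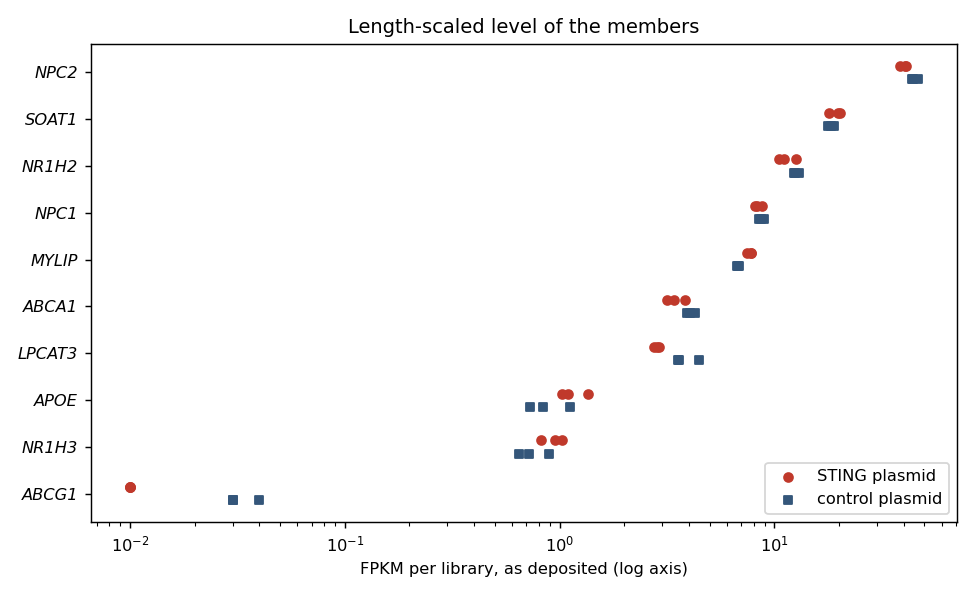
Deposited FPKM per library (log axis) for the 10 genes, ordered by their mean in the control libraries, with STING plasmid libraries as red circles and control plasmid libraries as blue squares. NPC2 stands highest, at 38.5 to 41.1 FPKM with the STING plasmid and 43.9 to 46.7 FPKM with the control plasmid, and ABCG1 lowest, at 0.01 FPKM with the STING plasmid and 0.03 to 0.04 FPKM with the control plasmid.

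Scaled for transcript length, the levels of the 10 genes spanned more than 3 orders of magnitude (the plot of deposited FPKM by gene). The lysosomal carrier NPC2 was the most abundant, at 40.1 ± 1.40 FPKM with the STING plasmid and 44.9 ± 1.51 FPKM with the control plasmid (SD, n = 3 each). SOAT1 followed, at 19.2 ± 1.18 FPKM with the STING plasmid and 18.4 ± 0.570 FPKM with the control plasmid. NR1H2 (11.4 ± 1.08 FPKM with the STING plasmid, 12.6 ± 0.343 FPKM with the control plasmid) stood above NPC1 (8.37 ± 0.310 FPKM with the STING plasmid, 8.68 ± 0.216 FPKM with the control plasmid). These cells thus carried more RNA, per length, for lysosomal export, storage and LXR beta than for the efflux pumps. MYLIP was at 7.67 ± 0.217 FPKM with the STING plasmid and 6.77 ± 0.0681 FPKM with the control plasmid. ABCA1 came next, at 3.46 ± 0.340 FPKM with the STING plasmid and 4.08 ± 0.167 FPKM with the control plasmid. LPCAT3 was at 2.84 ± 0.0755 FPKM with the STING plasmid and 3.86 ± 0.500 FPKM with the control plasmid. ABCA1 lay above LPCAT3 in every STING plasmid library, whereas their ranges overlapped in the control libraries. APOE (1.16 ± 0.176 FPKM with the STING plasmid, 0.897 ± 0.201 FPKM with the control plasmid) and NR1H3 (0.933 ± 0.106 FPKM with the STING plasmid, 0.753 ± 0.123 FPKM with the control plasmid) could not be ordered in either group, since their ranges overlapped. All other neighbours in this order were separate in both groups. The FPKM values carry no TMM scaling.

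**Figure D2:**
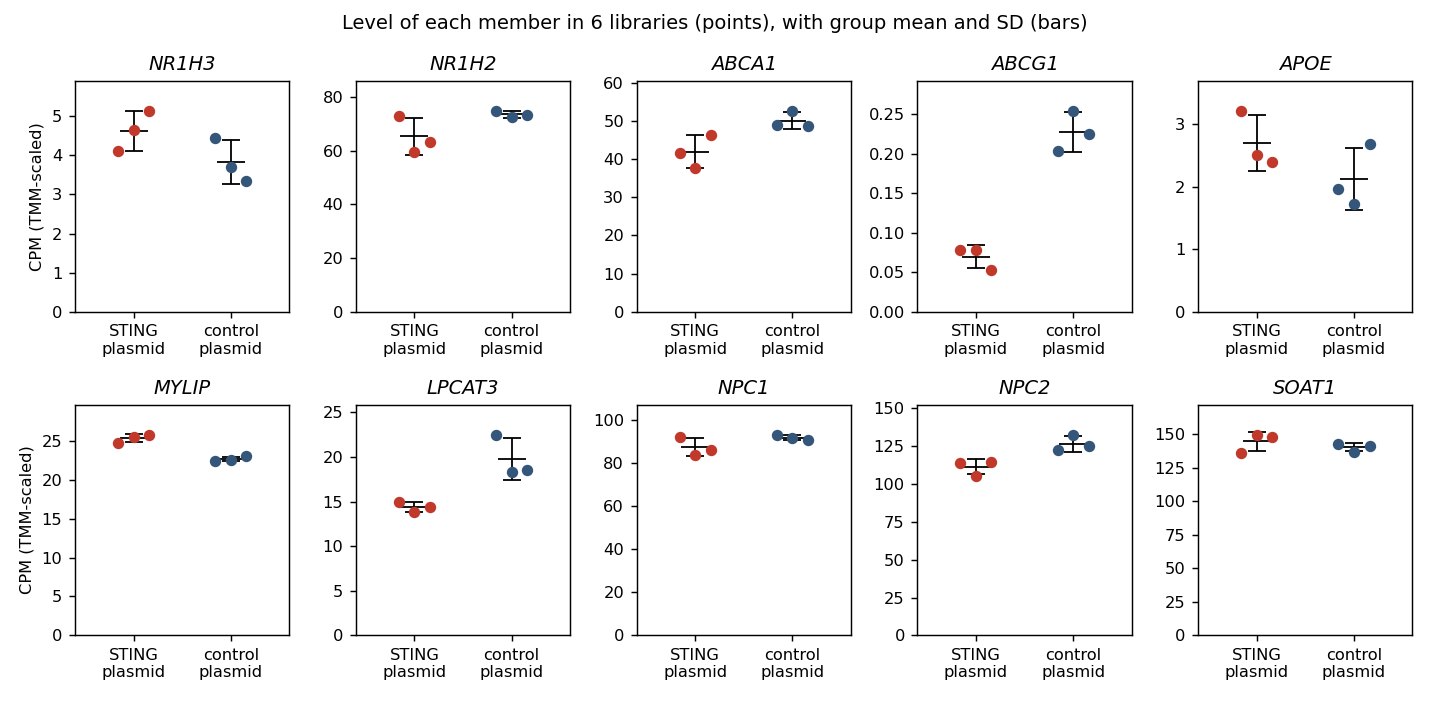
TMM-scaled CPM of each gene in the 3 STING plasmid libraries (red, left) and the 3 control plasmid libraries (blue, right), on linear axes from 0, with the group mean and SD as bars. The red and blue points do not overlap for LPCAT3, NPC2, ABCA1, ABCG1 and MYLIP.

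The receptors were considered first. NR1H2 (ENSG00000131408, chromosome 19, 50329653 to 50383388, plus strand, coordinates that match GRCh38) encodes LXR beta, the widely expressed form of the receptor. It was at 73.0, 59.6 and 63.4 CPM in STING plasmid libraries 1, 2 and 3, against 74.8, 72.4 and 73.4 CPM in the control libraries. STING plasmid library 1 lay within the range of the controls and the other 2 lay below it. The means were 65.3 ± 6.92 CPM with the STING plasmid and 73.5 ± 1.17 CPM with the control plasmid (SD, n = 3 each), a log2 fold change of −0.17 (SE 0.065, 95% interval −0.31 to −0.03), and the edgeR adjusted p was 0.219. Without STING plasmid library 1 the log2 fold change was −0.26 and passed (edgeR adjusted p = 0.0195). NR1H2 has a GC content of 60.9% in its longest GENCODE v29 transcript, and with an offset for GC content and length its log2 fold change was −0.11 (edgeR adjusted p = 0.283). Its deposited span also covers NAPSA on the opposite strand, at 0.886 CPM with the STING plasmid and 0.675 CPM with the control plasmid. The trend of log2 level with GC content, per 10% GC, was 0.0327, −0.0681 and −0.0393 in STING plasmid libraries 1, 2 and 3 and 0.0127 to 0.0431 in the control libraries.

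NR1H3 (ENSG00000025434, chromosome 11, 47248300 to 47268845, plus strand) encodes LXR alpha, which is itself an LXR target in human cells. It was far lower, at 4.11, 4.65 and 5.13 CPM in the STING plasmid libraries, against 4.43, 3.71 and 3.35 CPM in the control libraries. The groups overlapped through STING plasmid library 1 and control library 1. The estimate was a log2 fold change of 0.27 (SE 0.163, 95% interval −0.07 to 0.62, edgeR adjusted p = 0.495). The ratio of NR1H3 to NR1H2 FPKM within a library was 0.0830 ± 0.0155 with the STING plasmid and 0.0595 ± 0.00832 with the control plasmid (SD, n = 3 each, two-sided exact permutation p = 0.2). Thus LXR beta RNA outnumbered LXR alpha RNA in every library, and the ratio did not separate the groups. NR1H3 overlaps ACP2 on the opposite strand over 541 bases. ACP2 was at 38.6 CPM with the STING plasmid and 40.4 CPM with the control plasmid, and reads from the shared span cannot be told apart, as the strand setting is not given in the sources used here.

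Of the efflux pumps, ABCA1 moves cholesterol and phospholipid to lipid-poor apolipoproteins, and ABCG1 moves cholesterol to formed HDL particles. ABCA1 (ENSG00000165029, chromosome 9, 104781006 to 104928155, minus strand) was at 41.6, 37.8 and 46.4 CPM in the STING plasmid libraries, against 49.0, 52.6 and 48.6 CPM in the control libraries. All STING plasmid libraries lay below all controls, and the gap was small: the highest STING plasmid library was at 0.954 of the lowest control. The means were 41.9 ± 4.31 CPM with the STING plasmid and 50.1 ± 2.19 CPM with the control plasmid (SD, n = 3 each). With a log2 fold change of −0.26 (SE 0.070, 95% interval −0.41 to −0.11), ABCA1 did not pass in edgeR (adjusted p = 0.0843). It passed in DESeq2 (adjusted p = 0.0161), with the stricter filter of 1 CPM in 3 libraries (edgeR adjusted p = 0.0312), without a filter (edgeR adjusted p = 0.0355) and without STING plasmid library 3 (log2 fold change −0.34, edgeR adjusted p = 0.0400).

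ABCG1 (ENSG00000160179, chromosome 21, 42199689 to 42297244, plus strand) was close to the limit of detection. It was counted 6, 6 and 4 times in the STING plasmid libraries, against 15, 18 and 17 times in the control libraries. The groups did not overlap, and the highest STING plasmid library was at 0.383 of the lowest control in CPM. In CPM it was at 0.0694 ± 0.0146 with the STING plasmid and 0.228 ± 0.0251 with the control plasmid (SD, n = 3 each). The log2 fold change of −1.69 had a wide interval (−3.27 to −0.11, SE 0.745), with an edgeR adjusted p of 0.305, and DESeq2 gave no adjusted p. Small counts were uneven in these tables. In each library a count of 4 occurred for 1.97 to 2.29 times as many genes as the average of counts 3 and 5, so single counts may not be independent reads.

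APOE (ENSG00000130203, chromosome 19, 44905791 to 44909393, plus strand) encodes apolipoprotein E, the main lipid carrier released by astrocytes. In U251 cells it was low, at 3.21, 2.51 and 2.39 CPM in the STING plasmid libraries, against 1.97, 1.72 and 2.69 CPM in the control libraries. Control library 3 lay above 2 of the 3 STING plasmid libraries, so the groups overlapped. On the log2 scale the fold change was 0.35 (SE 0.219, 95% interval −0.12 to 0.81, edgeR adjusted p = 0.530), and the interval spans 0.921 to 1.75 times the control level. Macrophages also make apolipoprotein E. The ranges of the summed microglia and macrophage list given above overlapped between the groups, and its part in the APOE level was not tested.

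**Figure D3:**
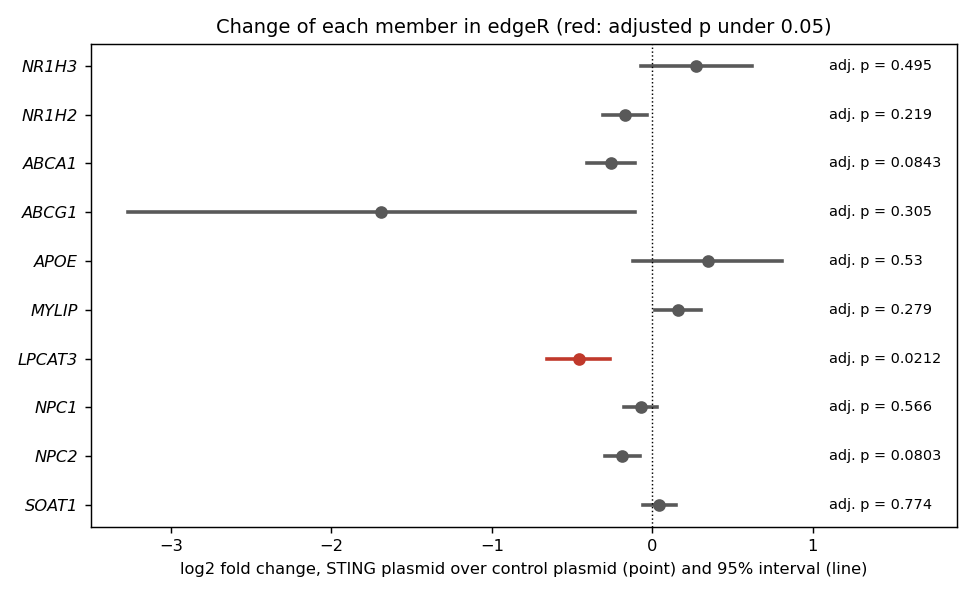
Log2 fold change of each gene, STING plasmid over control plasmid, from edgeR (point) with its 95% interval (line) and adjusted p at the right. LPCAT3, in red, is the gene past the threshold, at −0.46 with an interval of −0.65 to −0.27, and the interval of ABCG1 is the widest.

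LPCAT3 had the smallest p of the 10 genes. It encodes an acyltransferase that places polyunsaturated fatty acids into membrane phospholipids and is induced by LXR. LPCAT3 (ENSG00000111684, chromosome 12, 6976185 to 7018477, minus strand) was at 14.9, 13.8 and 14.4 CPM in the STING plasmid libraries, against 22.5, 18.3 and 18.6 CPM in the control libraries. All STING plasmid libraries lay below all controls, with the highest at 0.815 of the lowest control, and control library 1 stood above the other controls. The level fell to 14.4 ± 0.561 CPM with the STING plasmid, against 19.8 ± 2.34 CPM with the control plasmid (SD, n = 3 each), 0.727 of the control level. The log2 fold change was −0.46 (SE 0.092, 95% interval −0.65 to −0.27) with an edgeR adjusted p of 0.0212, and a two-sided exact permutation test of CPM gave p = 0.1, below which a design of 3 against 3 cannot go. The call was lost on leaving out control library 1, 2 or 3 (edgeR adjusted p = 0.146, 0.0526 and 0.0550) and on leaving out STING plasmid library 2 or 3 (edgeR adjusted p = 0.110 and 0.0700). Without control library 1 the log2 fold change was −0.36, and without each other library it lay between −0.51 and −0.43. On the opposite strand LPCAT3 overlaps EMG1 over 3752 bases and C1S over 30219 bases of its span. EMG1 was at 59.0 CPM with the STING plasmid and 62.5 CPM with the control plasmid (edgeR adjusted p = 0.517), and C1S at 16.3 CPM with the STING plasmid and 18.5 CPM with the control plasmid (edgeR adjusted p = 0.596). EMG1 alone did not overlap between groups (highest STING plasmid library 60.6 CPM, lowest control 61.3 CPM). Its sum with LPCAT3 (73.4 CPM with the STING plasmid and 82.3 CPM with the control plasmid) therefore could not overlap either. C1S alone overlapped between groups. The sum of LPCAT3 and C1S did not (30.7 CPM with the STING plasmid and 38.3 CPM with the control plasmid).

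MYLIP, also called IDOL, marks receptors of the lipoprotein receptor family for lysosomal degradation. MYLIP (ENSG00000007944, chromosome 6, 16129086 to 16148248, plus strand) was at 24.8, 25.4 and 25.8 CPM in the STING plasmid libraries, against 22.4, 22.6 and 23.0 CPM in the control libraries. All STING plasmid libraries lay above all controls, and the spread within each group was narrow, with coefficients of variation of 2.03% with the STING plasmid and 1.30% with the control plasmid. Expressed on the log2 scale the fold change was 0.16 (SE 0.067, 95% interval 0.02 to 0.30), with an edgeR adjusted p of 0.279. It lay in the direction opposite to LPCAT3 and ABCA1, and the difference between these genes was not tested.

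The lysosomal exporters came next. NPC2 (ENSG00000119655, chromosome 14, 74476192 to 74493347, minus strand) is the soluble carrier that picks up cholesterol in the lysosomal lumen. It was at 114.0, 105.4 and 114.3 CPM in the STING plasmid libraries, against 122.1, 132.3 and 125.1 CPM in the control libraries. No STING plasmid library reached the lowest control, and the highest was at 0.936 of it. The means were 111.2 ± 5.01 CPM with the STING plasmid and 126.5 ± 5.25 CPM with the control plasmid (SD, n = 3 each), a log2 fold change of −0.19 (SE 0.050, 95% interval −0.29 to −0.08) and an edgeR adjusted p of 0.0803. NPC2 passed in DESeq2 (adjusted p = 0.00984), with the stricter filter (edgeR adjusted p = 0.0341) and with the offset for GC content and length (log2 fold change −0.23, edgeR adjusted p = 0.0191). With that offset LPCAT3 and NPC2 were the 2 genes of the 10 called lower, where 2.41% of all genes were called, 1.44% lower.

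NPC1 (ENSG00000141458, chromosome 18, 23506184 to 23576947, minus strand) is the membrane protein that receives cholesterol from NPC2. It was at 92.0, 83.8 and 86.3 CPM in the STING plasmid libraries, against 93.2, 91.9 and 90.6 CPM in the control libraries. The groups overlapped through STING plasmid library 1, and the log2 fold change was −0.07 (SE 0.050, 95% interval −0.18 to 0.03, edgeR adjusted p = 0.566). The ratio of NPC1 to NPC2 FPKM was 0.209 ± 0.00714 with the STING plasmid and 0.193 ± 0.00917 with the control plasmid (SD, n = 3 each, two-sided exact permutation p = 0.2). The partners were therefore not shown to change relative to each other. NPC1 overlaps RMC1, on the opposite strand, over 25639 bases of its span (23.5 CPM with the STING plasmid and 23.3 CPM with the control plasmid).

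SOAT1 (ENSG00000057252, chromosome 1, 179293714 to 179358677, plus strand), the enzyme that esterifies cholesterol for lipid droplets, was at 136.1, 149.6 and 148.2 CPM in the STING plasmid libraries, against 142.8, 137.0 and 141.2 CPM in the control libraries. The groups overlapped, with STING plasmid library 1 the lowest of all 6. Its log2 fold change was 0.04 (SE 0.049, 95% interval −0.06 to 0.15, edgeR adjusted p = 0.774), so the interval runs from 0.960 to 1.11 times the control level. SOAT2, the other enzyme of this activity, was too low to be tested.

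**Figure D4:**
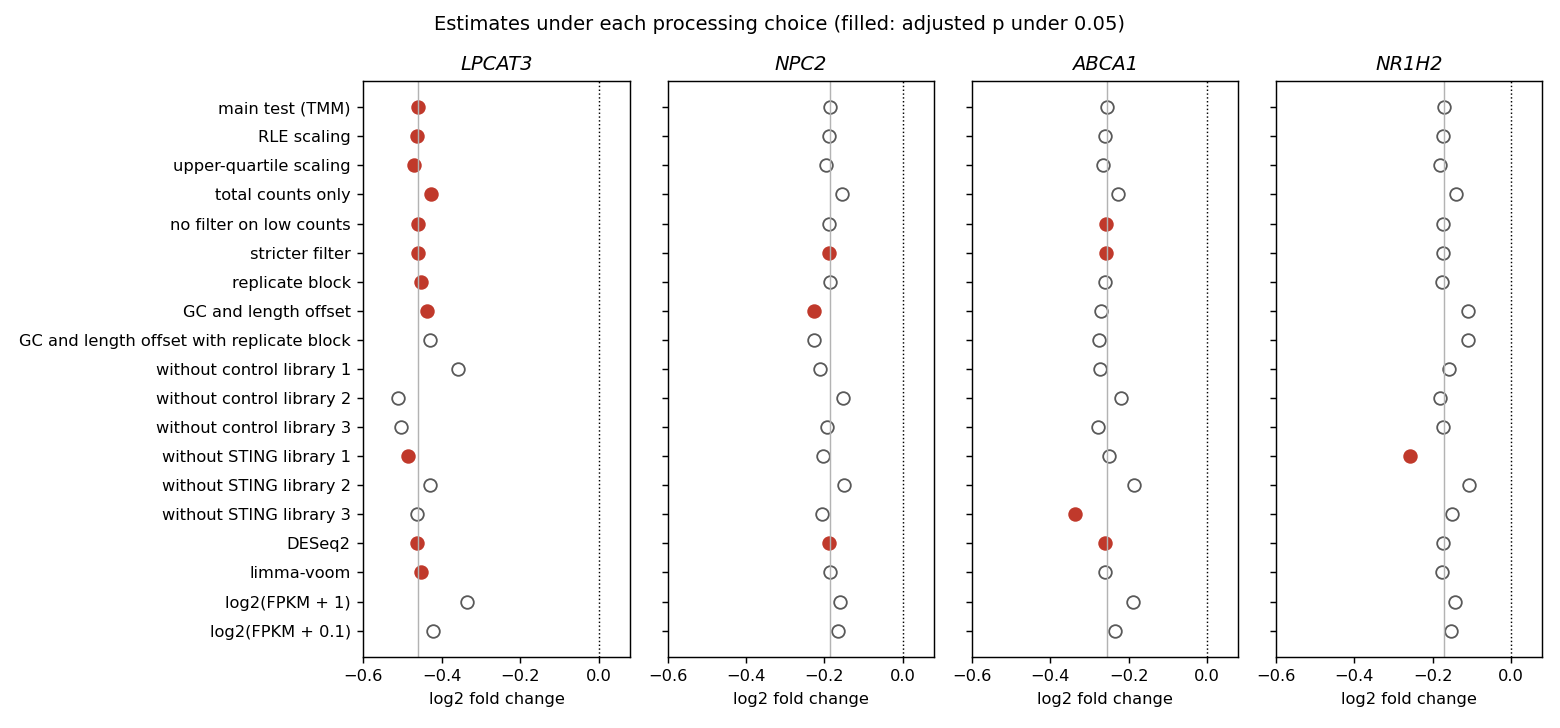
Log2 fold change (x axis) of LPCAT3, NPC2, ABCA1 and NR1H2 under each scaling, filter, tool and left-out library (rows), filled where the adjusted p was under 0.05. Every estimate shown is below 0, LPCAT3 was called under 10 of 18 alternatives, ABCA1 under 4, NPC2 under 3 and NR1H2 under 1.

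Upstream sequence is shown for the 3 genes that DESeq2 called lower, since LXR acts through elements in such regions and a DR4-type element is known in the ABCA1 promoter. Each window holds the 250 bases before the RefSeq start of transcription nearest to the deposited gene end, 5′ to 3′ on the gene's strand, from RefSeq on GRCh38.p14. The ABCA1 window is chr9:104928156-104928405 (minus strand), that of LPCAT3 chr12:7018477-7018726 (minus strand) and that of NPC2 chr14:74493306-74493555 (minus strand). Capitals mark matches, on either strand, to the DR4 repeat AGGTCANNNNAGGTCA with at most 2 mismatches among its 12 fixed bases, to the E-box CACGTG, to the CCAAT box CCAAT or to the sterol regulatory element TCACNCCAC.
ABCA1: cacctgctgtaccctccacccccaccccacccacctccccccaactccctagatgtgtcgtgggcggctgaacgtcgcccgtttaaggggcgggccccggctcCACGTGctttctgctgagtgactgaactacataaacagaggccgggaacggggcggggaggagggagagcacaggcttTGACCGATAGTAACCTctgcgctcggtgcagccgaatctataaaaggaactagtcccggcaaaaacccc
LPCAT3: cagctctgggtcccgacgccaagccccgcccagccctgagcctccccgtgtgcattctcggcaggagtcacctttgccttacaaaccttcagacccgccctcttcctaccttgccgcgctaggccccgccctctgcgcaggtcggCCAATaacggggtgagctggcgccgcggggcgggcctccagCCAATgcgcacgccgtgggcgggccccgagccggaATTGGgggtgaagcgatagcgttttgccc
NPC2: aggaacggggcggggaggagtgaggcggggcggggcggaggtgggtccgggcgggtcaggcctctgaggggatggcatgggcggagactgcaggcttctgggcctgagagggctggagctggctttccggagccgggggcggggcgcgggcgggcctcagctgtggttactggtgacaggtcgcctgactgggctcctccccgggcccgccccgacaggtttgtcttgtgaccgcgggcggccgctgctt

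ABCA1 held the DR4 match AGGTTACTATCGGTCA on its antisense strand, between 69 and 54 bases before the start, and an E-box between 147 and 142 bases before it. LPCAT3 held 3 CCAAT boxes, and NPC2 held none of the 4 motifs in this window. Windows were found for 9 of the 10 genes. For NR1H2 and NPC1 the start used lay 46804 and 9559 bases from the deposited gene end, and for the others at most 83 bases. The DR4 repeat was matched in 1 of these 9 and in 2.03% of 35116 such windows, and the E-box in 1 of 9 and in 6.34%. The CCAAT box was matched in 4 of 9 (APOE, MYLIP, LPCAT3 and SOAT1) and in 32.0% of all windows, and the sterol regulatory element in 0 of 9 and in 0.883%. LPCAT3, which fell, and MYLIP, with a positive estimate, thus both carried CCAAT boxes. The mismatch limit was chosen knowing the ABCA1 element, and no match says only that these letters are not in this window.

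**Figure D5:**
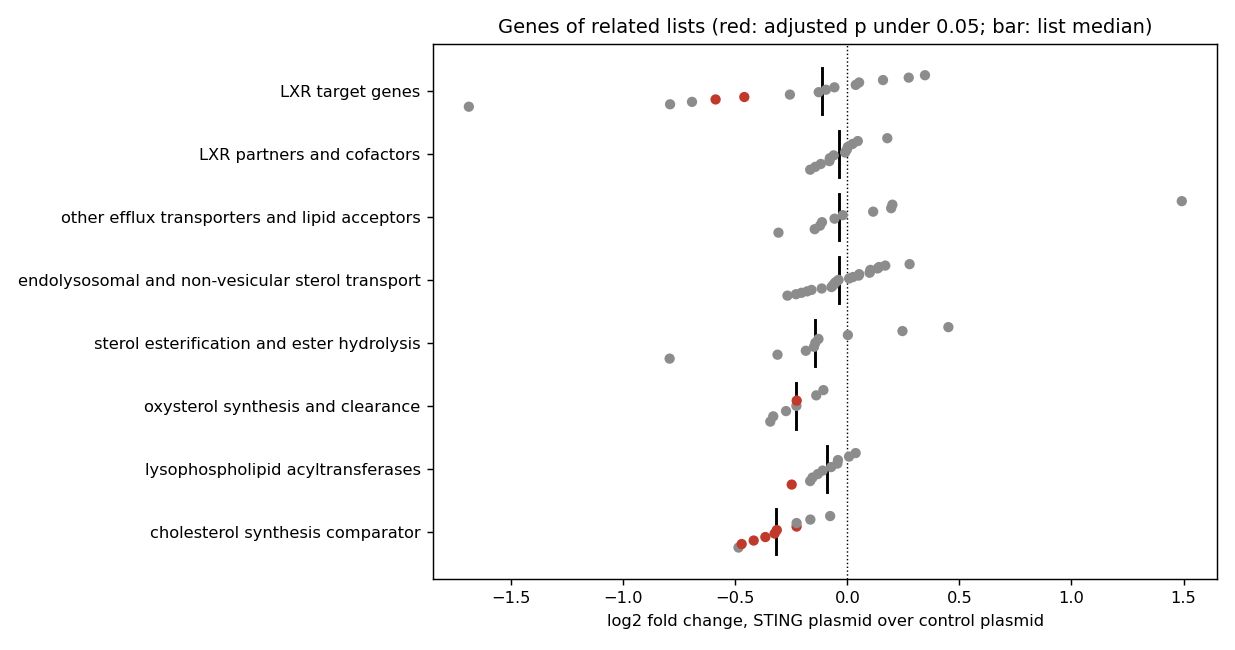
Log2 fold change, STING plasmid over control plasmid, of each tested gene in 8 related lists, in red where the adjusted p was under 0.05, with the list median as a black bar. The red points lie below 0, and 6 of them belong to the cholesterol synthesis list.

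Related genes were read as lists. Among LXR targets, a list of 17 of which 14 were tested and 6 are among the genes above, 2 fell (LPCAT3 and FASN), 0 rose and 12 did not pass in edgeR, with a median log2 fold change of −0.11. DESeq2 called 5 lower and 0 higher, limma-voom 2 lower and 0 higher, and 7 had an unadjusted edgeR p under 0.05. FASN, the fatty acid synthase, was at 339, 293 and 366 CPM in the STING plasmid libraries, against 520, 503 and 477 CPM in the control libraries (log2 fold change −0.59, SE 0.073, edgeR adjusted p = 0.00538, and 0.0880 without STING plasmid library 1). SREBF1, which encodes the lipogenic factor SREBP-1, was at 70.9, 62.0 and 90.8 CPM in the STING plasmid libraries, against 124, 124 and 114 CPM in the control libraries. Its groups did not overlap, its log2 fold change was −0.69 (SE 0.155), and it did not pass in edgeR (adjusted p = 0.148), though it did in DESeq2 (adjusted p = 0.00205) and without STING plasmid library 3 (edgeR adjusted p = 2.89e-05). SCD, a fatty acid desaturase, had a log2 fold change of −0.79 (SE 0.151) with an edgeR adjusted p of 0.12, a DESeq2 adjusted p of 5.65e-05 and an edgeR adjusted p of 0.00988 without STING plasmid library 3. Between 1 and 4 genes of the list were called lower when a library was left out. FASN, SCD and SREBF1 are known targets of SREBP-1 as well as of LXR.

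Of 12 tested RXR receptors and cofactors, the partners of LXR, 0 rose, 0 fell and 12 did not pass in edgeR, with a median of −0.04. An unadjusted p under 0.05 was found for 3, and calls numbered 1 up and 1 down by DESeq2 and 0 by limma-voom. The acetyltransferase EP300 was at 149 ± 1.66 CPM with the STING plasmid and 132 ± 1.51 CPM with the control plasmid (SD, n = 3 each, edgeR adjusted p = 0.0511). RXRA had a log2 fold change of −0.14 and RXRB of −0.08. Both RXR estimates were negative and neither passed.

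Of 10 tested genes among other efflux transporters and lipid acceptors 0 rose and 0 fell in edgeR, with 2 at an unadjusted p under 0.05, 1 called higher and 1 lower by DESeq2 and 0 by limma-voom. ABCA2, a transporter of the lysosomal compartment, had a log2 fold change of −0.31 (edgeR adjusted p = 0.112), APOL6 one of 0.20 (edgeR adjusted p = 0.113), and the HDL receptor SCARB1 one of −0.15 (edgeR adjusted p = 0.353). ABCA7 stood at −0.11. The median was −0.04.

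Of 23 tested genes of endolysosomal and non-vesicular sterol transport 0 rose and 0 fell in edgeR, with 6 at an unadjusted p under 0.05, 1 called higher and 2 lower by DESeq2 and 0 by limma-voom. The oxysterol-binding protein relative OSBPL6 had a log2 fold change of 0.28 (edgeR adjusted p = 0.0803), the sterol transfer protein GRAMD1A one of −0.23 (edgeR adjusted p = 0.127) and the annexin ANXA6 one of −0.18 (edgeR adjusted p = 0.175). The estimates pointed both ways, 11 positive and 12 negative, with a median of −0.04. Of 9 tested genes of ester formation and hydrolysis 0 changed in edgeR, with 4 at an unadjusted p under 0.05, 1 called lower by DESeq2 and 0 by limma-voom. The droplet coat protein PLIN3 had a log2 fold change of −0.19 (edgeR adjusted p = 0.0795), and the lysosomal acid lipase LIPA, which frees cholesterol from LDL esters, one of −0.13 (edgeR adjusted p = 0.395). PNPLA2 and LIPE, lipases of lipid droplets, had log2 fold changes of −0.14 and −0.31. The median of this list was −0.14, with 3 positive and 6 negative estimates.

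Of 7 tested genes that make or clear oxysterols, the ligands of LXR, 1 fell (ABCC1, a multidrug and conjugate exporter), 0 rose and 6 did not pass. The median log2 fold change was −0.23, and all 7 estimates were negative, but only ABCC1 had an unadjusted edgeR p under 0.05. That median was the SULT2B1 estimate (interval −1.56 to 1.11). SULT2B1, CYP46A1, CYP39A1 and CH25H each averaged under 1 CPM in both groups. The intervals were also wide for CYP46A1 (−0.91 to 0.70), CYP39A1 (−0.97 to 0.42) and CH25H (−2.93 to 2.25). Whether the list fell as a whole was not tested. ABCC1 was at 124 ± 7.28 CPM with the STING plasmid and 144.5 ± 2.72 CPM with the control plasmid (SD, n = 3 each, edgeR adjusted p = 0.0364). Its call was kept only without STING plasmid library 1 (adjusted p = 0.0260) and lost without each of the other 5 libraries (adjusted p = 0.0554 to 0.188). DESeq2 and limma-voom each called ABCC1 lower. The sterol 27-hydroxylase CYP27A1 had a log2 fold change of −0.14 and HSD3B7, an enzyme of bile acid synthesis, of −0.33 (edgeR adjusted p = 0.505 and 0.406), and CH25H was at 0.108 CPM with the STING plasmid and 0.138 CPM with the control plasmid.

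Of the lipoprotein receptors that MYLIP targets, LRP8, an apolipoprotein E receptor, fell to 104 ± 4.28 CPM with the STING plasmid, against 123 ± 5.79 CPM with the control plasmid (SD, n = 3 each, edgeR adjusted p = 0.0266). LRP8 lost its call without control library 1, 2 or 3 or STING plasmid library 2 (edgeR adjusted p = 0.172, 0.0832, 0.0974 and 0.108). VLDLR had a log2 fold change of −0.07 (edgeR adjusted p = 0.597), and the ubiquitin-conjugating enzyme UBE2D1, a partner of MYLIP, one of 0.22 (edgeR adjusted p = 0.166). Receptor protein was not measured.

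Of 10 tested lysophospholipid acyltransferases besides LPCAT3, 1 fell (LPCAT1), 0 rose and 9 did not pass, with a median of −0.09. LPCAT1, which acts on lysophosphatidylcholine, was at 67.8 ± 2.73 CPM with the STING plasmid and 80.5 ± 2.80 CPM with the control plasmid (SD, n = 3 each, edgeR adjusted p = 0.0238). Its call was kept without STING plasmid library 1 (adjusted p = 0.0232) and lost without each of the other 5 libraries (adjusted p = 0.0612 to 0.139). AGPAT3 and MBOAT2 had log2 fold changes of −0.13 and −0.16. Of the 10 estimates 8 were negative and 2 positive, and 4 genes, all lower, had an unadjusted edgeR p under 0.05. The positive estimates were those of LPCAT2 and LPCAT4, at 0.04 and 0.01. Their intervals included 0 (−0.12 to 0.19 for LPCAT2 and −0.14 to 0.16 for LPCAT4), so neither was shown to differ in direction from the rest.

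Set beside these genes, 6 of 10 enzymes or regulators of cholesterol synthesis fell, among them HMGCS1 and DHCR7 (log2 fold changes −0.47 and −0.42), 0 rose, and the median was −0.32. DESeq2 called 8 lower and limma-voom 6, and leaving out a library gave 4 to 8. That list was taken up with its direction known, so its count is a description, and whether it differs from the efflux and transport genes was not tested.

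The genes whose pattern lay nearest to that of LPCAT3 over the 6 libraries were FBLN1, AC073957, ASAP3 and PXDN, of 10300 genes with a mean of at least 10 CPM. Likeness was the root mean square difference of log2 CPM after centring each gene, which was 0.0659, 0.0673, 0.0717 and 0.0825 for these genes. They were chosen for this likeness, which fixes that they were lower with the STING plasmid, so their levels are a description with no test. FBLN1, for example, was at 27.0, 25.1 and 27.7 CPM in the STING plasmid libraries, against 39.0, 35.6 and 31.9 CPM in the control libraries. The log2 fold changes were −0.42 for FBLN1, −0.39 for AC073957, −0.40 for ASAP3 and −0.34 for PXDN. Of the other 9 sterol genes ABCA1 and NR1H2 lay nearest to LPCAT3 by this measure, at 0.168 and 0.171.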

How the data were processed

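Bowtie 0.12.2 is named in the submitters' processing notes. The counting program, annotation, genome build and strand setting were not given in the sources used here. The deposited tables hold the authors' read counts and FPKM values per Ensembl gene, per the file headers. GENCODE v29 held 40903 of the 42307 identifiers. For 89.8% of those the start, the end or both agreed within 1 base, and coordinates are therefore written as GRCh38. All rows named a gene.

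The main test on the counts was edgeR 4.0.16 under R 4.3.3 (filterByExpr by group, robust quasi-likelihood fit after TMM scaling, two-sided, with Benjamini-Hochberg adjustment over 21679 genes, threshold 0.05), on 3 STING plasmid and 3 control plasmid libraries without covariates. Standard errors are approximate, obtained from the log2 fold change and the F statistic. The 95% intervals use them with the test's degrees of freedom. Exact permutation tests used scipy 1.17.1. Replicates differed by a chi-square per gene of 11.7 to 23.1, so none was counted with another. The procedure was tested on simulated data.

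The genes and the lists were chosen with earlier results of these data known. The genes named were the 10 genes, STING1, the 3 tested genes with the smallest p in each list, VLDLR, SREBF1, ABCA7, LIPA, RXRA and RXRB, and the 4 genes nearest to the gene with the smallest p. Others (cell type markers, overlapping models, CH25H, SULT2B1, CYP46A1, CYP39A1, LPCAT2, LPCAT4, SOAT2 and ABCG4) were named after their values were seen. Some genes that the rule names are not reported here. Other settings tried were scaling by RLE, upper quartile or total counts, no filter and a stricter filter, DESeq2 1.42.0, limma 3.58.1 (voom, and log2 of FPKM plus 1 or 0.1), the replicate number as a block, an offset for GC content and length (splines fitted per library on genes of at least 1 CPM), and leaving out each library.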

Additional observations from a re-analysis of the deposited data

How the results depend on the processing

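Each of the 10 genes kept the direction of its estimate under every alternative that gave a value. The number of them called lower was 1 in the main test, 2 without a filter, 3 with the stricter filter, 2 with the GC content and length offset, 0 with that offset and the replicate block, 3 in DESeq2 and 0 on log2(FPKM + 1) or log2(FPKM + 0.1). It ranged from 0 to 2 when 1 library was left out. The share called over all genes also changed with the filter. Of all tested genes, 193 of 21679 were called lower in the main test, 269 of 38310 without a filter and 412 of 14979 with the stricter filter. The stricter filter kept 9 of the 10 genes and removed ABCG1. The median log2 fold change of the 10 genes was −0.0401 on log2(FPKM + 1). STING1 did not pass on the FPKM scales (0.554 and 0.614 on the log2 scale).

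Over all genes 131 were called higher and 193 lower in the main test. The higher and lower counts were 274 and 412 with the stricter filter, 206 and 305 with the GC content and length offset, 420 and 612 in DESeq2, 11 and 3 on log2(FPKM + 1), and 10 and 3 on log2(FPKM + 0.1). With total counts alone 253 were higher. When 1 library was left out they ranged from 34 to 260 and from 26 to 481, with both maxima without STING plasmid library 1. The cause of these differences was not tested.

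With the replicate number as a block 55 genes were higher and 65 lower, and with the offset as well 56 and 78. The number does not pair the samples by the labels, and same-numbered libraries deviated together only weakly (correlations of 0.0172 to 0.0551 across genes, with STING plasmid library 3 closest to control library 2). LPCAT3 stayed called with the block (adjusted p = 0.0440) and was not called with the block and the offset (adjusted p = 0.0633). Under the block alone LRP8, LPCAT1 and ABCC1 lost their calls (adjusted p = 0.102, 0.0793 and 0.112). On the FPKM scales LPCAT3, FASN, LRP8, LPCAT1 and ABCC1 were not called (adjusted p = 0.0645 to 0.229).

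ABCG1 had 4 to 18 counts per library, so counting error is large for it. Counting error was not set apart from other scatter for the other genes.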

Other observations

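SOAT2, which was below the filter on low counts, averaged 0.187 CPM with the STING plasmid and 0.0448 CPM with the control plasmid. The transporter ABCG4, a relative of ABCG1, averaged 0.296 ± 0.113 CPM with the STING plasmid and 0.104 ± 0.0996 CPM with the control plasmid (SD, n = 3 each, edgeR adjusted p = 0.480).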
